A study of Mus musculus with 6 samples.

Results

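The fragments described here reach the 3' end of a mature nuclear-encoded tRNA, either with the CCA tail attached or stopping at the last base that the gene encodes. They were chosen by annotation: every tRNA assigned to the sequence had to be a mature nuclear tRNA, and every assignment had to place the fragment at its CCA end or at its 3' end without CCA. The rule found 1693 of the 38798 tRNA-derived small RNA (tsRNA) sequences in the count table, 359 with CCA and 1334 without. They were 15 to 45 nt long and held 453660 counts over all libraries. Smooth muscle cells of the pulmonary artery from Wild type mice were kept at 3% O2 for 24 hours (hypoxia, 3 libraries) or under standard conditions (normoxia, 3 libraries), and the study asked which tsRNAs respond to hypoxia. Each library is a biological replicate according to the labels, which give no strain, sex or age. Libraries followed the Pandora-seq strategy: RNA was first treated with enzymes to strip modifications that hinder adapter ligation or reverse transcription. The table lists tRNA fragments only, so the labelled cell type could not be checked against its marker genes.

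Nuclear tRNA genes of mammals do not encode the CCA tail; the CCA-adding enzyme TRNT1 attaches it after the 3' trailer of the precursor has been cut off. The terminal A receives the amino acid, so a tRNA without the whole tail cannot be charged. Short 3' fragments arise from cuts in the T loop and longer ones from cuts in or near the anticodon loop, where the stress ribonuclease angiogenin is known to act. Angiogenin is also known to trim the CCA tail itself.

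A tRNA-Gln-CTG series was the most abundant in which all forms of a tail could be compared on the same body, and it shows what the classes mean. In this series the capitals mark bases of the tail; only the first form (no CCA) and the last (CCA) are members, since the table places forms with an incomplete tail among internal fragments.
Gln-CTG, no tail: atctcggtggaacct
Gln-CTG, C: atctcggtggaacctC
Gln-CTG, CC: atctcggtggaacctCC
Gln-CTG, CCA: atctcggtggaacctCCA
The 3 most abundant short CCA fragments came from tRNA-Tyr and tRNA-Glu, and they hold a large part of all member counts. The capitals again mark the tail.
Tyr-GTA, 17 nt: tccggctcgaaggaCCA
Tyr-GTA, 16 nt: ccggctcgaaggaCCA
Glu-CTC and Glu-TTC, 15 nt: ccggtcagggaaCCA
Longer CCA fragments came mostly from tRNA-Ala and tRNA-Phe. These are shown because the 36 and 37 nt sequences differ by 1 base at the 5' end, and because the 37 nt sequence was among those lower in hypoxia.
Ala-CGC and Ala-TGC, 27 nt: cgggttcgatccccggcatctccaCCA
Ala-CGC and Ala-TGC, 36 nt: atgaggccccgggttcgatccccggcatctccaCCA
Ala-CGC and Ala-TGC, 37 nt: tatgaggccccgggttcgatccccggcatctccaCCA
Phe-GAA, 33 nt: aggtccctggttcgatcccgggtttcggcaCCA
The fragments without CCA were led by other tRNAs, and the final capital marks the last encoded base, the discriminator. They are shown because the results on untailed fragments turn on tRNA-Asp and tRNA-Arg.
Asp-GTC, 35 nt: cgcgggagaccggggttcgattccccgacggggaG
Asp-GTC, 41 nt: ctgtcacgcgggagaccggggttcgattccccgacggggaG
Arg-TCT, 32 nt: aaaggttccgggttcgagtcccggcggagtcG
Arg-CCG, 28 nt: attgtgggttcgagtcccatctgggtcG
Arg-ACG, 27 nt: ttccaggttcgactcctggctggctcG
Trp-CCA, 17 nt: aaatcacgtcggggtcA
Ser-GCT, 17 nt: gaatcccatcctcgtcG

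These tRNAs are multicopy: RefSeq for GRCm38.p6 lists 10 genes for Tyr-GTA on 4 chromosomes, 16 for Asp-GTC on 6 and 11 for Ala-TGC on 4. A fragment was therefore given no single position. Among the members, 263 sequences matched several anticodon families and held 28.4% of member counts, and 27 matched several amino acids, so their source is uncertain. Another 73 untailed members happen to end in the letters CCA within the encoded part, with 314 counts in all.

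The libraries held 330787 to 2563749 counts, and members made up 4.83% to 6.68% of them. Both libraries numbered 1 were the smallest and stood apart in this class. CCA members were 3.07% of counts in hypoxia replicate 1 and 3.24% in normoxia replicate 1, against 4.54% to 4.86% in the other 4 libraries. Members without CCA were 3.62% and 2.46% in these libraries and 0.194% to 0.298% in the other 4. The main comparisons are therefore given per library and within the same-numbered pairs of libraries, and the shares over all members, the ratios, the sums and the medians also without both libraries numbered 1. The labels do not say that equal numbers mark matched samples.

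CCA-tailed sequences made up most of the 3' terminal counts except in the hypoxia library numbered 1. The CCA share of member counts was 45.9%, 93.9% and 94.0% in hypoxia replicates 1 to 3. It was 56.8%, 95.2% and 96.2% in normoxia replicates 1 to 3. The groups overlapped, and within each group the library numbered 1 was far below the others. The means were 78.0% ± 27.8 in hypoxia and 82.7% ± 22.5 in normoxia (SD, n = 3; exact two-sided permutation p = 0.5, where 0.1 is the smallest value that 3 against 3 libraries can give). Within the pairs the share was lower in hypoxia in 3 of 3, by -10.9, -1.29 and -2.12 percentage points (exact sign-change p = 0.25, the smallest that 3 pairs can give). The difference of the means was -4.78 points, -1.70 without both libraries numbered 1, 11.3 without hypoxia replicate 1, 1.46 without normoxia replicate 2 and 1.94 without normoxia replicate 3. Without normoxia replicate 1 it was -17.7, and without hypoxia replicate 2 or 3 it was -12.8. Among members with at least 15 nt before the tail only, it was -8.39.

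Both terminus classes moved in opposite directions within the pairs in CPM, counts scaled to the library total. Untailed members had 36161, 2982 and 2875 CPM in hypoxia replicates 1 to 3 and 24614, 2367 and 1938 CPM in normoxia replicates 1 to 3. The hypoxia library was the higher one in every pair, 1.47-, 1.26- and 1.48-fold, while the groups overlapped (exact permutation p = 0.5). CCA members had 30667, 46104 and 45403 CPM in hypoxia and 32380, 47077 and 48644 CPM in normoxia. Here the hypoxia library was the lower one in every pair, at 0.947-, 0.979- and 0.933-fold, again with overlapping groups (exact permutation p = 0.5).

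Tailed and untailed fragments differed in length. The median length of a CCA read was 17 nt in both libraries numbered 1 and 16 nt in the other 4, and that of an untailed read was 28 and 27 nt in the libraries numbered 1 and 33 nt in the other 4. Fragments of 15 to 18 nt made up 71.3% and 71.8% of CCA counts in the libraries numbered 1 of hypoxia and normoxia and 92.2% to 94.2% in the others. They made up 20.6% to 24.4% of untailed counts in all 6 libraries. Untailed counts had a second group at 33 to 36 nt, which held 41.5% to 47.0% in the libraries numbered 2 and 3 and 15.7% and 15.9% in those numbered 1. The CCA class had only 0.311% to 2.97% of its counts there.

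Of all member counts, fragments of 24 nt or shorter made up 58.2%, 93.4% and 94.0% in hypoxia and 65.3%, 94.0% and 93.6% in normoxia (replicates 1 to 3; exact permutation p = 0.7). Those of 25 to 29 nt made up 14.3%, 1.71% and 1.51% in hypoxia and 13.5%, 1.75% and 2.0% in normoxia (exact permutation p = 1). Those of 30 nt or longer made up 27.5%, 4.85% and 4.51% in hypoxia and 21.2%, 4.27% and 4.43% in normoxia (exact permutation p = 0.5). No length class separated the groups, and the libraries numbered 1 were the longest in both. The share of 30 nt or longer was higher in hypoxia in 3 of 3 pairs, by 6.33, 0.574 and 0.0849 points, and its difference of means of 2.33 points was -5.28 without hypoxia replicate 1, -0.511 without normoxia replicate 2 and -0.435 without normoxia replicate 3. With the same libraries left out, the difference for 24 nt or shorter went from -2.42 to 9.43, 2.43 and 2.23 points, and that for 25 to 29 nt from 0.0863 to -4.15, -1.92 and -1.80. Without both libraries numbered 1 the differences were -0.0648, -0.265 and 0.330 points from the shortest to the longest class.

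In every library the CCA share was highest among short fragments, and it was lowest among long ones in all but normoxia replicate 1, where the middle class was lowest. Among members of 24 nt or shorter it was 70.7%, 98.2% and 98.0% in hypoxia and 77.6%, 98.5% and 98.8% in normoxia. The difference of means there was -2.69 points, -0.556 without both libraries numbered 1 and -5.28 with length counted without the tail, among members with at least 15 nt before it. Among those of 30 nt or longer it was 11.4%, 20.2% and 21.0% in hypoxia and 18.9%, 33.1% and 46.1% in normoxia. For the long class the hypoxia library was below the normoxia library in all 3 pairs, by -7.56, -12.9 and -25.2 points, but normoxia replicate 1 lay below hypoxia replicates 2 and 3. The means were 17.5% ± 5.33 and 32.7% ± 13.6 (SD, n = 3; exact permutation p = 0.3, 0.6 after Benjamini-Hochberg adjustment over the 3 length classes). The difference of -15.2 points stayed below 0 with any 1 library left out, between -22.1 without normoxia replicate 1 and -8.49 without normoxia replicate 3, and was -19.0 without both libraries numbered 1.
In the middle class of 25 to 29 nt the CCA share was 11.6%, 68.9% and 64.3% in hypoxia and 15.8%, 67.9% and 83.4% in normoxia. It was lower in hypoxia in 2 of 3 pairs, and the groups overlapped (exact permutation p = 0.6). The difference was -7.45 points, and -9.07 without both libraries numbered 1.

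In the long class, untailed and tailed fragments lay on opposite sides within the pairs. Untailed fragments of 30 nt or longer had 16289, 1899 and 1721 CPM in hypoxia and 9783, 1414 and 1206 CPM in normoxia, so that hypoxia was higher in each pair (1.67-, 1.34- and 1.43-fold; exact permutation p = 0.5). CCA fragments of that length had 2088, 481 and 456 CPM in hypoxia and 2282, 699 and 1033 CPM in normoxia, lower in hypoxia in each pair (0.915-, 0.688- and 0.442-fold; exact permutation p = 0.5). In both classes the groups overlapped because the libraries numbered 1 were the highest of their group.

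The CCA share by length has a limit that the table itself shows. When members were grouped by the 12 bases before the tail, there were 84 different ends. Of these, 56 were listed in both forms, 7 only with CCA and 21 only without, and the last held 28115 counts, 59.1% of all untailed counts. Among the 63 ends with a CCA form, the longest CCA fragment listed was 18 nt or shorter for 42 and 30 nt or longer for only 5, whereas 66 ends had an untailed fragment of 30 nt or longer. tRNA-Tyr is an example: its CCA sequences were listed at 15 to 18 nt only, with 158153 counts, and the same end without tail ran to 33 nt. Why the tailed forms stop at these lengths is not given in the sources used here, and its part in the shares above was not tested. The comparison was therefore repeated on subsets chosen after this was seen.

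The first subset held the 5 ends with long CCA fragments, from Ala-CGC and Ala-TGC, Lys-CTT, Cys-GCA and Phe-GAA with Ser-GGA, 247 sequences in all. Among their fragments of 30 nt or longer the CCA share was 68.9%, 94.1% and 87.3% in hypoxia and 78.2%, 97.4% and 98.8% in normoxia. On these ends most long members carried the tail in every library, with fragments ending in C or CC not counted. The share was again lower in hypoxia in 3 of 3 pairs, by -9.33, -3.31 and -11.5 points, with overlapping groups (exact permutation p = 0.5). By length, fragments of 30 nt or longer made up 35.9%, 7.41% and 8.0% of the counts of these ends in hypoxia and 32.3%, 9.52% and 12.5% in normoxia, lower in hypoxia in 2 of 3 pairs.

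These ends differed in their CCA share. For tRNA-Phe (with Ser-GGA) fragments of 30 nt or longer, the CCA share was 62.2%, 85.6% and 74.0% in hypoxia and 73.5%, 93.5% and 95.3% in normoxia, lower in each pair with overlap from normoxia replicate 1. For Lys-CTT at that length it was 74.8%, 79.9% and 93.4% against 81.1%, 90.4% and 97.3%, also lower in each pair. The Ala end stayed between 97.5% and 100% in all 6 libraries. Cys-GCA was at 65.4%, 100% and 100% against 68.2%, 100% and 100%, lower in 1 pair, on 3 to 26 counts per library. A second Phe-GAA end had only 0 to 21 counts per library at that length. Exact permutation p was 0.3 for Phe, 0.4 for Lys and 1 for Ala.

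The second subset compared the listed forms of the tail on the same body. There were 204 bodies (the sequence before the tail, at least 15 nt) listed with the whole CCA, and counts of the same body with no tail, C, CC or CCA were added up. Only 88 of the 204 had all 4 forms listed: the no-tail form was not listed for 84, C for 90 and CC for 38, and a form that was not listed counted as 0. The whole tail held 57.1%, 87.4% and 86.4% of these counts in hypoxia and 62.6%, 90.4% and 91.6% in normoxia. It was lower in hypoxia in 3 of 3 pairs, by -5.50, -3.07 and -5.18 points, and the libraries numbered 1 were lowest in both groups (exact permutation p = 0.5). The pair differences were more alike here than for the share over all members.

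The incomplete forms were each higher in hypoxia in 3 of 3 pairs. Bodies with no tail made up 16.1%, 3.59% and 4.71% in hypoxia and 12.8%, 2.65% and 1.31% in normoxia. Bodies ending in C made up 7.12%, 2.06% and 2.45% against 5.86%, 1.97% and 1.31%. Bodies ending in CC, which lack only the A that is charged, made up 19.7%, 7.00% and 6.44% against 18.7%, 4.96% and 5.81%. CC was the most frequent incomplete form in all 6 libraries, and none of the 3 forms separated the groups (exact permutation p = 0.5 for each).

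By length of the CCA form, the bodies of all 3 classes were lower in hypoxia in each pair. For the 68 bodies whose CCA form was 30 nt or longer, the whole tail held 47.5%, 81.6% and 77.1% in hypoxia and 58.3%, 90.5% and 88.4% in normoxia. For the 105 bodies whose CCA form was 24 nt or shorter, it held 60.5%, 88.0% and 87.2% in hypoxia and 64.8%, 90.9% and 91.7% in normoxia. The long bodies were lower in hypoxia by -10.8, -8.95 and -11.3 points in the 3 pairs and the short ones by -4.30, -2.85 and -4.45. The 31 bodies of 25 to 29 nt differed by -2.66, -0.495 and -9.11, so the pair differences did not follow length in order. Whether the classes differ was not tested. On the 120 bodies listed both with no tail and with CCA, and counting only these forms, the CCA share was 76.1%, 95.6% and 94.3% in hypoxia and 81.3%, 96.8% and 98.3% in normoxia, lower in 3 of 3 pairs.

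The tRNA-Gln-CTG series printed above shows the same forms on 1 body of 15 bases. Its CCA form held 47.8%, 84.3% and 82.7% of the body's counts in hypoxia and 47.1%, 85.1% and 85.6% in normoxia. In the libraries numbered 1 the no-tail, C and CC forms each held 15.2% to 20.8%, and in the others 2.81% to 7.81%. For this body, hypoxia was lower in 2 of 3 pairs, so it did not follow the sum over all bodies in the pair numbered 1.

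By amino acid, the CCA share of the ladder of bodies was lower in hypoxia in 3 of 3 pairs for 5 of the 15 amino acids or groups with such bodies, and in 0 of 3 for 1. The 5 were Ala, Gln, Phe, Pro and iMet, the initiator tRNA. Phe was at 47.4%, 72.1% and 71.0% in hypoxia and 58.6%, 87.3% and 83.9% in normoxia. iMet was at 67.5%, 94.8% and 88.0% against 80.8%, 95.5% and 99.0%. Arg went the other way in each pair, with 65.6%, 82.4% and 88.7% against 64.9%, 78.2% and 71.4%. Arg had only 5 bodies, with 136 counts per library on average. Their no-tail form held 0% in every library, so the Arg share turns on the C and CC forms alone. All of these groups overlapped between hypoxia and normoxia, with exact permutation p of 0.4 to 0.5.

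Over all members, 17 amino acids or groups each held at least 1% of the counts. tRNA-Tyr was the largest, with 35.1% of member counts from 4 CCA and 46 untailed sequences. Its CCA share was 86.2%, 99.9% and 99.8% in hypoxia and 92.2%, 99.8% and 99.8% in normoxia, and 97.8% or more of its counts were 24 nt or shorter in each library. Tyr members had 9228, 16710.3 and 19314 CPM in hypoxia and 9081, 19763 and 19516 CPM in normoxia. The groups overlapped in both measures.

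Ala followed with 10.5% of member counts and kept the tail in nearly all of them. Its CCA share was 98.7%, 99.8% and 99.6% in hypoxia and 98.9%, 99.9% and 100% in normoxia (after rounding). Forms ending in C or CC are not members. With them counted, the whole tail held 77.2%, 93.0% and 94.3% on the Ala bodies of the ladder in hypoxia. In normoxia it held 80.9%, 95.3% and 95.5%. Fragments of 30 nt or longer were 14.6%, 6.14% and 5.16% of Ala member counts in hypoxia and 12.2%, 8.12% and 11.3% in normoxia. The hypoxia library was higher in the first pair and lower in the others (exact permutation p = 0.7).

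Glu (9.45% of member counts), Gln (7.08%), Leu (7.00%) and Gly (4.46%) were short and tailed outside the libraries numbered 1. In replicates 2 and 3 of both groups their CCA share was 98.0% to 98.7% for Glu, 94.8% to 96.8% for Gln, 99.5% to 99.9% for Leu and 98.1% to 99.4% for Gly. In the libraries numbered 1 of hypoxia and normoxia it was 90.1% and 92.7% for Glu, 77.1% and 80.3% for Gln, 84.6% and 89.6% for Leu, and 86.1% and 93.1% for Gly. The longest CCA fragment listed was 18 nt for Glu, 20 nt for Leu, 21 nt for Gly and 26 nt for Gln, while their untailed fragments reached 43 to 45 nt.

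Lys (5.53%), Asn (2.33%) and Val (1.27%) had a much lower CCA share in the libraries numbered 1 than in the others. For Lys it was 54.2%, 96.7% and 98.1% in hypoxia and 66.1%, 97.8% and 98.7% in normoxia. For Asn it was 46.8%, 98.3% and 99.1% against 63.5%, 99.4% and 99.2%. For Val it was 27.4%, 90.9% and 90.1% against 46.5%, 92.6% and 91.7%. Each was lower in hypoxia in all 3 pairs with overlapping groups (exact permutation p = 0.5 to 0.6).

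Sequences assigned to Phe alone (1.04%) leave out 9 short sequences shared with Ser on the same end (1.23%), which were 24 nt or shorter and tailed at 95.1% to 100%. The CCA share of Phe alone was 62.0%, 87.4% and 75.7% in hypoxia and 74.2%, 92.3% and 94.0% in normoxia. Hypoxia was lower in 3 of 3 pairs, and only normoxia replicate 1 reached into the hypoxia range. The means were 75.0% ± 12.7 and 86.9% ± 11.0 (SD, n = 3; exact permutation p = 0.3). Its fragments of 30 nt or longer made up 71.0%, 66.1% and 62.5% in hypoxia and 72.6%, 57.5% and 76.5% in normoxia. With the shared sequences, the whole end was tailed at 67.9%, 95.4% and 91.0% in hypoxia and 79.1%, 97.2% and 98.0% in normoxia, a difference of -6.71 points against -11.9 for Phe alone. On the whole end, fragments of 30 nt or longer made up 58.1%, 21.7% and 22.0% in hypoxia and 57.1%, 19.3% and 21.8% in normoxia.

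Arg (4.09%), Ser (1.62%) and Thr (1.20%) were mixed in terminus and length. In replicates 2 and 3 the Arg CCA share was 66.6% and 62.0% in hypoxia and 63.3% and 66.8% in normoxia, and in the libraries numbered 1 it was 2.61% and 5.68%. Ser was at 50.1% and 47.4% against 53.3% and 51.2%, and at 1.71% and 2.25% in the libraries numbered 1. Thr was at 69.4% and 57.5% against 68.0% and 71.4%, and at 22.8% and 29.7% in the libraries numbered 1. Many Arg and Ser ends had no CCA form at all: 8 of 15 Arg ends and 4 of 8 Ser ends had one.

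Asp, Trp and SeC, the selenocysteine tRNA, had no CCA member. Asp-GTC had 50 untailed sequences with 11357 counts on a single end, and the table listed none with C, CC or CCA on that end. Asp was also the longest, with fragments of 30 nt or longer at 83.4%, 92.2% and 94.7% in hypoxia and 79.9%, 94.3% and 93.3% in normoxia. Asp members had 2983, 1316 and 1259 CPM in hypoxia and 2029, 1048 and 801 CPM in normoxia. Hypoxia was higher in 3 of 3 pairs, 1.47-, 1.26- and 1.57-fold, and only normoxia replicate 1 reached into the hypoxia range (exact permutation p = 0.5). Trp had 67 untailed sequences, mostly short, with 88.0% to 98.6% of counts at 24 nt or shorter.

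The ends also differed by the discriminator base before the tail. Of 43 ends with A as the last encoded base 37 had a CCA form, of 12 ends with T 11, and of 2 ends with C 1. Of 27 ends with G, only 14 had one. The CCA share of counts was 98.6% to 99.1% for A and 70.0% to 78.3% for G in replicates 2 and 3 of both groups. On bodies listed with the whole tail it was 90.4% to 94.8% for A and 76.9% to 88.0% for G in those libraries. All of these bodies have a listed CCA form, but many lack a listed no-tail, C or CC form. Forms that were not listed can therefore still affect these shares, and their part for A and G was not tested. G ends come from Arg, Asn, Asp, Lys, SeC and Ser, and Arg and Ser also have A ends, so base and amino acid overlap in part. The amino acids with G ends only were not alike. In those libraries the share was 96.7% to 98.7% for Lys and 98.3% to 99.4% for Asn, while Asp and SeC had no CCA member. On bodies listed with the whole tail it was 95.5% to 97.2% for Asn and 54.4% to 67.7% for Lys. A pair of Arg-TCG ends whose 12 bases differ only in this base was singled out after their values were seen. In replicates 2 and 3 their CCA shares were 96.9% to 100% with A and 7.89% to 24.1% with G. These shares rest on 24 to 99 counts per library with A and 12 to 38 with G. Over all 6 libraries there were 276 CCA and 42 untailed counts with A and 18 and 830 with G. The libraries numbered 1 held 539 and 210 of the counts with G. The end with G was listed with 1 CCA form, of 15 nt, and 22 untailed forms. The end with A had 3 CCA forms of up to 17 nt and 11 untailed forms. What part the base itself or the listing of forms has was not tested.
Arg-TCG end with A: ccttcgtggttA
Arg-TCG end with G: ccttcgtggttG

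Across the 19 amino acids with a CCA form and at least 50 counts per library on average, the CCA share was lower in hypoxia in 3 of 3 pairs for 9, in 2 for 7 and in 1 for 3. The median difference of means was -2.0 points. For none did the groups separate, and the smallest exact permutation p was 0.3, 0.877 after Benjamini-Hochberg adjustment over the 19. As a log2 ratio of CCA to untailed counts (pseudocount 0.5), tested with limma, the hypoxia value was lower for 18 of the 19, with a median difference of -0.60; Ile was the exception. None passed an adjusted p of 0.05, nor an unadjusted one (0% of 19). Without both libraries numbered 1, 5 of 18 were lower at an unadjusted p under 0.05 (27.8%): Cys, Met, Ala, Phe and Gly, each with a limma adjusted p of 0.116. Untailed counts over all libraries were few for Cys (31) and Ala (100). Cys had none in normoxia replicates 2 and 3, so its ratio there rests on the pseudocount. With the replicate number as a block, unadjusted p was under 0.05 for Gly (log2 -1.25, SE 0.29) and Phe (log2 -1.32, SE 0.44), 10.5% of the 19, with adjusted limma p of 0.24 and 0.30. On the bodies listed with the whole tail the median difference was -0.28, with 9 of 14 below 0. On these bodies Cys was at 0.07 and Ala at -0.42. There the blocked difference was -0.53 (SE 0.35) for Gly, no longer under an unadjusted p of 0.05, and -1.05 (SE 0.29) for Phe, still under it with a limma adjusted p of 0.216.

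Single sequences were tested with edgeR's quasi-likelihood test across the whole table. The filter on low counts left 6452 tsRNAs, of which 346 were members: 215 of the 359 with CCA and 131 of the 1334 without. No member passed an adjusted p of 0.05, and neither did any other tsRNA (0%). At an unadjusted p under 0.05, 0 members were called, against 0.279% of all tested tsRNAs higher and 0.418% lower; unadjusted, DESeq2 gave 1 member (1.3% of all tested) and limma voom 5 (1.69% of all). With the replicate block 0 members and 0.155% of all passed in edgeR; unadjusted, 20 members were higher (5.78%, against 3.41% of all) and 9 lower (2.6%, against 2.98%). DESeq2 with the block called 2 members, while 0.434% of all tested tsRNAs passed there.

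The log2 changes of the tested members lay on either side of the table's median of 0.02. The 215 CCA members had a median of -0.16 with 84 above 0, and the 131 untailed members had a median of 0.55 with 100 above 0. Of all tested tsRNAs 51.3% were above 0. For CCA members of 30 nt or longer the median was -0.58 with 6 of 27 above 0, and for untailed members of that length 0.78 with 42 of 56 above 0. Higher in hypoxia in 3 of 3 pairs were 60 members (17.3%, against 15% of all), 18 with CCA and 42 without; lower in 3 of 3 were 47 (13.6%, against 13.4%), 40 with CCA and 7 without. An untailed member could pass the filter through its counts in 1 group alone, and most untailed members were not tested, so these medians describe only those that passed. Without both libraries numbered 1 the medians were -0.19 for CCA and 0.38 for untailed members.

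The most abundant CCA fragments differed little between the groups. The 17 nt Tyr fragment had 4115, 7393 and 8679 CPM in hypoxia and 4332, 8766 and 8801 CPM in normoxia. The 16 nt one, shorter by 1 base at the 5' end, had 2911, 7326 and 8164 CPM against 3195, 8659 and 8518 CPM. Both were slightly lower in hypoxia in each pair, with overlapping groups, and their log2 changes were -0.15 (SE 0.70) and -0.18 (SE 0.79; edgeR adjusted p = 1 for both). The 15 nt Glu fragment had 969.6, 2319 and 2019 CPM in hypoxia and 1097, 1990 and 2459 CPM in normoxia, without a common direction over the pairs.

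Only 5 members were lower in hypoxia without overlap between the groups, 1.45% of tested members against 2.51% of all tested tsRNAs, and all 5 carried CCA. The one with the smallest p was the 37 nt Ala fragment, with 5.88, 12.1 and 9.92 CPM in hypoxia and 15.1, 42.8 and 34.4 CPM in normoxia. All 3 hypoxia libraries lay below the lowest normoxia library (log2 -1.76, SE 0.81; edgeR adjusted p = 1). The lowest normoxia value, in replicate 1, rests on 5 counts, and hypoxia replicate 1 had 3. The 36 nt form, which lacks its first base, had 62.7, 69.4 and 40.3 CPM in hypoxia and 75.6, 57.3 and 114.7 CPM in normoxia, and its groups overlapped. The others named by the rule were 2 Ala fragments of 33 and 25 nt and an 18 nt fragment of Thr-AGT, with log2 changes of -0.76, -0.72 and -0.80. The fifth, a 17 nt Gly-TCC fragment that falls outside the rule and was added after its values were seen, had a log2 change of -0.62.
Ala-CGC and Ala-TGC, 33 nt: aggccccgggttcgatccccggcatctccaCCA
Ala-CGC and Ala-TGC, 25 nt: ggttcgatccccggcatctccaCCA
Thr-AGT, 18 nt: atcccagcggggcctCCA
Gly-TCC, 17 nt: tcccggccaacgcaCCA
The Ala sequences share their 3' part and are overlapping reads of the same end, not separate evidence. The remaining long Ala and Phe fragments overlapped between the groups: the 27 nt Ala fragment had 172, 167 and 115 CPM in hypoxia and 191, 162 and 288 CPM in normoxia, and the 33 nt Phe fragment had 156.7, 5.46 and 12.2 CPM against 181, 14.4 and 14.7 CPM. The Ala fragments of 26 and 30 nt had 82.3 to 141.6 and 66.5 to 74.9 CPM in hypoxia and 93.7 to 174 and 48.4 to 218 CPM in normoxia. A 27 nt Lys-CTT fragment had 321, 33.9 and 46.1 CPM against 429, 27.5 and 16.6 CPM.

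Only 1 member was higher in hypoxia without overlap (0.289% of tested members, 2.32% of all). It was the 41 nt Asp-GTC fragment, with 39.2, 16.4 and 23.9 CPM in hypoxia and 12.1, 10.4 and 14.7 CPM in normoxia (log2 0.96, SE 0.66; edgeR adjusted p = 1). Its value in normoxia replicate 1 rests on 4 counts. The more abundant 35 nt Asp fragment, contained in it, had 339, 382 and 311 CPM in hypoxia and 366, 239 and 147 CPM in normoxia, lower in the first pair and higher in the others (log2 0.55, SE 0.50). The 34 nt fragment, shorter by 1 base, had 289.9, 200.1 and 198 CPM against 275, 202 and 240.5 CPM.

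Abundant untailed fragments of other tRNAs came mainly from the libraries numbered 1. The 32 nt Arg-TCT fragment had 1142, 16.4 and 18.1 CPM in hypoxia and 644, 7.66 and 19.6 CPM in normoxia. The 17 nt Trp fragment had 580, 26.5 and 27.4 CPM against 339, 18.03 and 22.7 CPM, and the 17 nt Ser-GCT fragment 472, 25.4 and 8.75 CPM against 366, 9.02 and 2.45 CPM. The Trp and Ser-GCT fragments were higher in hypoxia in 3 of 3 pairs, Arg-TCT in 2. A 15 nt Arg-ACG fragment had 362, 15.2 and 46.1 CPM against 359.7, 28.4 and 22.7 CPM, and a 27 nt Arg-TCG fragment 496, 1.56 and 0 CPM against 215, 6.31 and 4.91 CPM. A 27 nt fragment of Arg-CCG and Arg-TCG, with 546.5, 0.390 and 5.83 CPM against 432, 1.80 and 0 CPM, did not pass the filter. The edgeR adjusted p was 1 for each of those tested, and 0.641 for Ser-GCT with the block (log2 1.06, SE 0.43).

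The 2 members called by DESeq2 with the block were singled out after their values were seen, and both are tRNA-Arg fragments. The 28 nt Arg-CCG fragment had 131, 1.95 and 1.75 CPM in hypoxia and 212, 48.7 and 18.4 CPM in normoxia, lower in each pair (log2 -2.81; DESeq2 adjusted p = 0.0126). Its values in hypoxia replicates 2 and 3 rest on 5 and 3 counts. The 27 nt Arg-ACG fragment had 274, 12.5 and 14.0 CPM in hypoxia and 148, 0.902 and 0.614 CPM in normoxia, higher in each pair (log2 2.52; DESeq2 adjusted p = 0.0449). Its values in normoxia replicates 2 and 3 rest on 2 and 1 counts. In edgeR with the block the adjusted p was 0.111 and 0.153. The 27 nt Arg-CCG sequence that lacks the first base of the first one had 335, 6.24 and 18.7 CPM in hypoxia and 357, 4.06 and 0 CPM in normoxia, lower in the first pair and higher in the other pairs.

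When counts were summed by amino acid, terminus and length class, 314 sums of the whole table were tested, 69 of them from 3' termini. None of the 314 passed an adjusted p of 0.05 in edgeR (0%), with or without the block, and at an unadjusted p under 0.05 without the block 1 of the 69 was higher and 0 lower, against 1.27% and 0.318% of all. Unadjusted, DESeq2 gave 2 higher (2.55% of all) and 0 lower (2.23%), limma voom 0 higher and 0 lower (0.955% of all each), and DESeq2 with the block 7 higher (7.01%) and 0 lower (7.32%). All 41 untailed sums had a log2 change above 0, against 187 of all 314 sums, with medians of 0.83 and 0.09. The 28 CCA sums had a median of -0.06 with 12 above 0. Within the pairs, 23 of the 41 untailed sums were higher in hypoxia in 3 of 3 and 15 in 2, and of the 28 CCA sums 4 in 3 and 4 in 0. Such pair counts were not made over all sums. Without both libraries numbered 1, 30 of 36 untailed sums remained above 0 with a median of 0.59, against 148 of all 308 sums with a median of -0.04. With the block, 10 of the 69 were higher at an unadjusted p under 0.05 (14.5%, against 9.24% of all sums), all of them untailed, and none lower (4.46% of all).

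The sums with the smallest p in the blocked fit were long untailed Ser and Arg fragments. Ser fragments of 30 nt or longer had 1974, 89.7 and 71.8 CPM in hypoxia and 759, 50.5 and 31.9 CPM in normoxia. Arg fragments of that length had 6766, 147 and 151 CPM against 4516, 60.9 and 104.3 CPM. Each was higher in hypoxia in all 3 pairs, with blocked log2 changes of 1.24 (SE 0.27) and 0.91 (SE 0.20) and an edgeR adjusted p of 0.249 for both. DESeq2 with the block called them at adjusted p of 0.00557 and 0.015, where 5.73% of all sums passed. Asp fragments of that length had 2488, 1214 and 1192 CPM in hypoxia and 1620, 988 and 748 CPM in normoxia, higher in each pair (blocked log2 0.64, SE 0.19; edgeR adjusted p = 0.328).

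Mitochondrial tRNAs, which carry a CCA tail added by the same enzyme, were compared within libraries. The table held 234 mitochondrial 3' termini, 57 with CCA and 177 without, and the CCA forms were 18 nt or shorter. The mitochondrial CCA share was 61.9%, 90.6% and 92.4% in hypoxia and 90.9%, 97.2% and 95.7% in normoxia. Like the nuclear share, it was lower in hypoxia in each pair, with overlapping groups. The nuclear share was above the mitochondrial one in 3 of 6 libraries, with a mean difference of -7.76 points ± 14.6 (SD, n = 6; exact sign-change p = 0.40625). In the libraries numbered 1 the nuclear share differed by -16.0 points in hypoxia and -34.0 in normoxia, and without both the mean difference was 0.871 points.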

How the data were processed

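The submitters' processing notes name the build mm10. The sources used here do not name the aligner, annotation tool or settings. The table deposited by the authors holds raw read counts per tsRNA sequence, with annotations, for 6 libraries, per the labels and the values; 0 columns were left out. The labels mention no molecular identifiers, so counts may include PCR copies. Members and lists were chosen with earlier results of these data known.

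Members were found by their annotations, and RefSeq tables supplied gene numbers. CPM is counts scaled to the library total. Shares were compared by exact two-sided permutation and by sign changes within same-numbered pairs. Sequences and sums were tested with edgeR 4.0.16 (TMM, filterByExpr, quasi-likelihood F test) on all rows, ratios with limma 3.58.1, all with Benjamini-Hochberg adjustment, in R 4.3.3; DESeq2 1.42.0 and voom were alternatives. The scripts were tested on simulated data. Same-numbered libraries deviated together from their group means over tested tsRNAs (r = 0.810, 0.533 and 0.450), and the numbers were taken to pair the samples. Such deviations sum to 0 within a group, so the r of numbers 2 and 3 can follow from the libraries numbered 1. Differently numbered libraries were not compared, so matching 2 with 2 and 3 with 3 was not tested. The labels give no shared day or animal.

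Named sequences were the 3 of highest mean CPM in each terminus and length class, any passing the test, and up to 4 higher and 4 lower of smallest p among those of at least 10 CPM without overlap. The subsets by end and by body, the Gly-TCC fragment and the DESeq2 fits with the block were added after the data were seen.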

Additional observations from a re-analysis of the deposited data

How the results depend on the processing

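The counts of changed members, sums and ratios were 0 under every normalization, filter and tool run without the block and with any 1 library left out (0 to 0), and 0 with the replicate block in edgeR and voom; DESeq2 with the replicate block gave 2 members and 2 sums. The replicate block left the share differences as they are (-4.78 points for the CCA share, exact sign-change p = 0.25) and changed no other call.

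Leaving out 1 library in turn moved the difference of hypoxia and normoxia (points) between -17.7 and 11.3 for the CCA share, -11.9 and 9.43 for the share of 24 nt or shorter, -4.15 and 3.98 for 25 to 29 nt, and -5.28 and 7.94 for 30 nt or longer. The CCA share within these classes moved between -9.71 and 6.47, -27.4 and 10.9, and -22.1 and -8.49, and that with incomplete tails in the total, -4.34 from all libraries, between -17.96 and 11.4. Removing 1 library of a pair leaves its partner unmatched.

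Restricted to bodies listed in both forms, the differences in length share were 1.34, -0.462 and -0.880 from short to long, and on the 5 ends with long CCA fragments 1.5, -0.499 and -0.997, against -2.42, 0.0863 and 2.33 over all members. The difference for 25 to 29 nt was -0.0262 without the most abundant member, -1.03 with length counted without the tail and -0.265 without both libraries numbered 1. The nuclear minus mitochondrial difference was 6.39 without the most abundant member of each and 0.871 without both libraries numbered 1, against -7.76, and -9.97 to -2.50 with 1 library left out. The cause was not tested.

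With 3 libraries a group no exact test between hypoxia and normoxia can reach 0.05, and the smallest libraries are also those with the most untailed fragments. Of 24 named sequences tested, 10 changed sign without hypoxia replicate 1 and 8 without normoxia replicate 3.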
